A study of Homo sapiens with 3 samples.

Results

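Heat shock proteins and their J-domain partners were followed in THP-1 cells before and after differentiation. The genes were chosen by symbol alone: HSPA, HSPB, HSPD1, HSPE1, HSPH1, HSP90, CCT, BAG, DNAJA, DNAJB and DNAJC genes, with antisense genes, pseudogenes, HSPA5, DNAJB9 and DNAJC3 left out. This gave 81 of the 19775 genes on the array, read by 189 probe sets. By role they were 8 HSP70 proteins, 10 nucleotide exchange factors and other HSP70-binding cochaperones, 3 HSP90 proteins, 2 mitochondrial chaperonin genes, 9 CCT genes, 7 small heat shock proteins, 4 DNAJA, 11 DNAJB and 26 DNAJC genes, and HSPBAP1. HSPBAP1 encodes a protein that binds a small heat shock protein and is no chaperone of these families. It came in by the letters of its symbol alone.

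Chaperones bind unfolded protein chains and help them fold, stop them from clumping or pass them on for degradation. HSP70 holds a stretch of chain in cycles driven by ATP. J-domain proteins (DNAJA, DNAJB and DNAJC) bring clients to HSP70 and start ATP hydrolysis, and nucleotide exchange factors (BAG proteins, HSPH1, HSPA4 and HSPA4L) release ADP so that the cycle can begin again. HSP90 finishes the folding of kinases and steroid receptors, the CCT ring folds actin and tubulin in the cytosol, HSPD1 and HSPE1 form the folding chamber of mitochondria, and small heat shock proteins hold unfolded chains without ATP. Many of these genes are switched on by the heat shock factor HSF1, which binds repeated GAA units, and others are made at a constant level in every growing cell.

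THP-1 cells, an established line from a human monocytic leukemia, take on macrophage traits when given phorbol myristate acetate (PMA), an activator of protein kinase C. Each condition was 1 culture on 1 array. The groups were undifferentiated cells without PMA, cells labelled PMA 3 days (200 nM PMA for 24 h, then 3 days without it) and cells labelled PMA 8 days (200 nM PMA for 72 h, then 5 days without it). All were grown in medium with 10% serum, and a change to 2% serum came 16 h before RNA isolation, with no statement of whether undifferentiated cells had it too. The PMA cultures thus differed in age, in length of PMA exposure and in length of recovery, which cannot be told apart. With 1 array per condition no test was possible and no p-value is given. A gene is called higher or lower where its signals on both arrays are 2-fold or more apart, and smaller differences are given by their values.

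Values are MAS5 signals, the linear brightness of a probe set, and the trimmed mean of each array was 1000. Lower signals were raised to a floor of 149.8, the median of all values, before ratios were taken, and 48.5% to 51.5% of probe sets exceeded it. Ratios of a gene whose lower array was at the floor are bounds, written "at least". Where a gene had several probe sets, the pooled SD of their log2 ratios was 0.430 and 0.444 against undifferentiated cells for PMA 3 days and PMA 8 days cells, and 0.265 between the PMA arrays. This probe set SD covers no difference between cultures. In the same order the spiked poly-A transcripts, which track labelling, had medians of 0.31, 0.02 and -0.29 on the log2 scale, so that scaling to them moves the median of all genes to -0.39, -0.09 and 0.30. Where 2 log2 ratios or folds follow the signals of a gene, the first is PMA 3 days and the second PMA 8 days, each over undifferentiated. All 3 comparisons share arrays with each other and are not independent.

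The label was checked against cell type markers. Of 6 myeloid markers on the array, 6 were above the floor on the PMA 8 days array, 6 on the PMA 3 days array and 5 on the undifferentiated array. CD14, the endotoxin co-receptor of monocytes, had signals of 850, 34195 and 22449 in undifferentiated, PMA 3 days and PMA 8 days cells. The myeloid markers did not all go one way: at PMA 8 days 3 were higher and 2 lower, with LYZ at 62439 in undifferentiated cells, 36591 at PMA 3 days and 23242 at PMA 8 days and CSF3R at 1836 in undifferentiated cells, 678 at PMA 3 days and 552 at PMA 8 days. None of 4 T cell markers passed the floor on any array, with summed signals between 67 and 241. Of 3 B cell markers CD79A and PAX5 were above it on all 3 arrays, and the list summed to 1145 in undifferentiated cells, 813 at PMA 3 days and 982 at PMA 8 days. Of 3 erythroid markers only HBB was above it, with 382 in undifferentiated cells, 425 at PMA 3 days and 442 at PMA 8 days. Of 4 epithelial markers only KRT8 was above it on any array, with 194 in undifferentiated cells, 131 at PMA 3 days and 199 at PMA 8 days. Of 4 fibroblast markers COL1A1 had 464 in undifferentiated cells, 2337 at PMA 3 days and 1828 at PMA 8 days, COL1A2 had 157 in undifferentiated cells, 10.1 at PMA 3 days and 47.1 at PMA 8 days, DCN had 147 in undifferentiated cells, 159 at PMA 3 days and 228 at PMA 8 days, and LUM was below the floor throughout. The list summed to 834 in undifferentiated cells, 2584 at PMA 3 days and 2124 at PMA 8 days, most of it COL1A1 on each array. The part of these signals in the results was not tested. In RNA from a whole culture, fewer cells of a type and less RNA per cell cannot be told apart.

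Of the 81 chaperone genes, 64 were above the floor on all 3 arrays, 6 on 2, 2 on 1 and 9 on none. The 9 without signal above the floor were CCT8L2, DNAJB7, DNAJB8, DNAJC5G, DNAJC12, HSPA12A, HSPB2, HSPB6 and HSPB9. In PMA 3 days over undifferentiated 71 genes entered, of which 4 were higher (5.63%, against 10.4% of all genes) and 3 lower (4.23%, against 10.7%). In PMA 8 days over undifferentiated 3 of 71 were higher (4.23%, against 9.83%) and 2 lower (2.82%, against 8.49%). In PMA 8 days over PMA 3 days 1 of 72 was higher (1.39%, against 1.37%) and 0 were lower (against 0.958%). The share past 2-fold was thus below that of all genes in both comparisons with undifferentiated cells.

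The same held at 1.5-fold. In PMA 3 days over undifferentiated 9 chaperone genes were higher (12.7%, against 17.9% of all genes) and 8 lower (11.3%, against 23.8%). In PMA 8 days over undifferentiated 9 were higher (12.7%, against 17.6%) and 5 lower (7.04%, against 20.1%). In PMA 8 days over PMA 3 days 3 were higher (4.17%, against 7.18%) and 4 lower (5.56%, against 4.76%). The median log2 ratio of the chaperone genes was -0.15, against -0.12 for all genes, in PMA 3 days over undifferentiated. It was 0.00, against -0.07, in PMA 8 days over undifferentiated, and 0.11, against 0.04, in PMA 8 days over PMA 3 days.

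**Figure D1:**
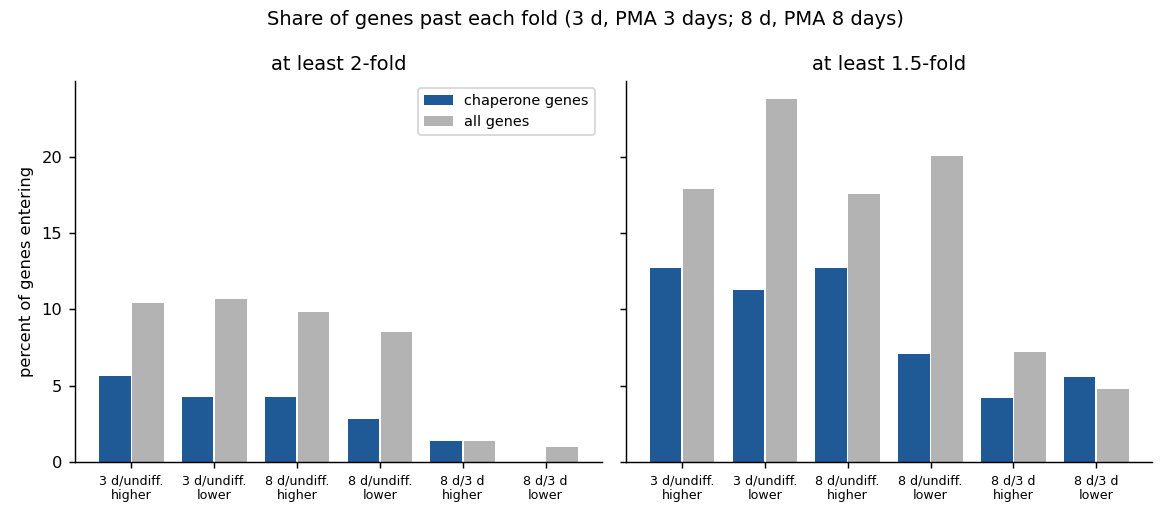
Share of genes (percent of those entering, vertical axis) at least 2-fold (left) and at least 1.5-fold (right) higher or lower in each comparison, with chaperone genes in blue and all genes in grey. The blue bars are shorter than the grey ones in the 4 pairs set against undifferentiated cells on either side, for example 5.63% against 10.4% higher at PMA 3 days.

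**Figure D2:**
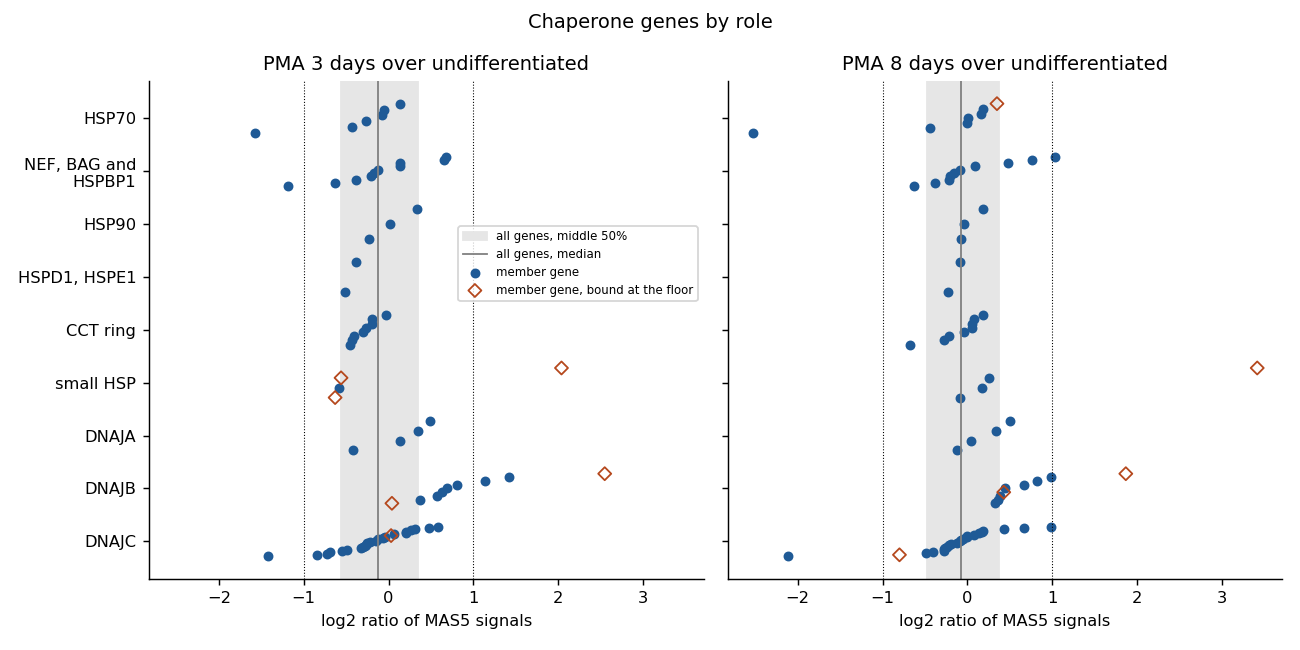
Log2 ratio of MAS5 signals (horizontal axis) of each chaperone gene, grouped by role, for PMA 3 days (left) and PMA 8 days (right) over undifferentiated cells, with dotted lines at 2-fold, bounds as open diamonds and the middle 50% of all genes shaded. All 9 DNAJB genes entering lie right of 0 in both panels, each read by its brightest probe set. DNAJB2 and DNAJB13 are bounds that could only lie there, since they entered through their PMA signals alone. Single genes of the HSP70 (HSPA6), small heat shock protein (HSPB3), DNAJB (DNAJB2) and DNAJC (DNAJC5B) groups lie farthest from 0.

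HSP70 proteins were led by HSPA6, a strictly stress-inducible HSP70 that is silent in most unstressed cells. HSPA6 (probe set 213418_at) had a signal of 11300 in undifferentiated, 3780 in PMA 3 days and 1956 in PMA 8 days cells. Each later array was lower than the one before it. HSPA6 was 2.99-fold lower (log2 ratio -1.58) at PMA 3 days and 5.78-fold lower (-2.53) at PMA 8 days than in undifferentiated cells, and 1.93-fold lower (-0.95) at PMA 8 days than at PMA 3 days. Its other probe set, 117_at, had 3103 in undifferentiated cells, 1036 at PMA 3 days and 655 at PMA 8 days, with log2 ratios of -1.58 at PMA 3 days and -2.24 at PMA 8 days, so both probe sets went the same way. The probe sets may also read the near-identical sequence HSPA7.

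None of the other HSP70 genes reached 1.5-fold in any comparison on its brightest probe set. HSPA9, the HSP70 of mitochondria, had 16987 in undifferentiated cells, 16098 at PMA 3 days and 17051 at PMA 8 days on that probe set. These log2 ratios were all smaller than the probe set SD. Its probe set 200690_at had 0.35 at PMA 3 days and 0.47 at PMA 8 days, the latter just beyond the SD of 0.444, and 200692_s_at had 0.06 and 0.15. HSPA13, which is bound to the endoplasmic reticulum, had 4483 in undifferentiated cells, 4944 at PMA 3 days and 5024 at PMA 8 days on its brightest probe set and 1369 in undifferentiated cells, 2292 at PMA 3 days and 2848 at PMA 8 days on the other. That second probe set had log2 ratios of 0.74 at PMA 3 days and 1.06 at PMA 8 days, against 0.14 and 0.16 on the first. HSPA14, an HSP70 of the ribosome-associated complex, had 6701 in undifferentiated cells, 4988 at PMA 3 days and 6704 at PMA 8 days, while its probe set 227650_at had 1626 in undifferentiated cells, 829 at PMA 3 days and 766 at PMA 8 days. The PMA 8 days value of HSPA14 was thus equal to the undifferentiated one on its brightest probe set (log2 ratio 0.00) and lower on 227650_at (-1.09). Its remaining probe set, 226887_at, had 1474 in undifferentiated cells, 1054 at PMA 3 days and 1002 at PMA 8 days, also lower (-0.48 and -0.56). HSPA2 had 580 in undifferentiated cells, 484 at PMA 3 days and 662 at PMA 8 days, HSPA1L had 469 in undifferentiated cells, 451 at PMA 3 days and 346 at PMA 8 days, and HSPA12B had 192 at PMA 8 days and lay below the floor on the other arrays. Over the 6 HSP70 genes entering at PMA 3 days the median log2 ratio was -0.17, and over the 7 at PMA 8 days it was 0.01, which became -0.03 after quantile normalization.

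The main inducible and constitutive HSP70 genes are read only by probe sets listed with several genes, which were not counted among the 81. Probe set 202581_at, listed with HSPA1B and HSPA1A, had 2197 in undifferentiated cells, 3764 at PMA 3 days and 2915 at PMA 8 days, and 200799_at, with the same listing, had 1472 in undifferentiated cells, 949 at PMA 3 days and 1713 at PMA 8 days. These 2 went opposite ways at PMA 3 days (log2 ratios of 0.78 and -0.63), and no direction is given for that listing. Probe set 200800_s_at, listed with HSPA1L, HSPA1B and HSPA1A, had 1417 in undifferentiated cells, 1815 at PMA 3 days and 1480 at PMA 8 days. The 4 probe sets listed with SNORD14D, SNORD14C and HSPA8, the constitutive HSP70 of the cytosol, had signals of 45241 to 53451 in undifferentiated, 46540 to 58023 in PMA 3 days and 52057 to 59249 in PMA 8 days cells. Their log2 ratios over undifferentiated lay between 0.04 and 0.24.

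The promoter of HSPA6 is printed because this gene had the largest decrease among the chaperone genes and because HSF1 sites are what this family is known for. The window of 300 bases, from 250 before to 50 after the start, comes from RefSeq on GRCh38.p14 (chr1:161524290-161524589, plus strand). Capitals mark heat shock units: GAANNTTC, TTCNNGAA and the full element of 3 GAA units in alternating orientation, each 2 bases from the next, searched on both strands and overlapping one another. TGANTCA, found in 2 places, is left in lower case.
HSPA6: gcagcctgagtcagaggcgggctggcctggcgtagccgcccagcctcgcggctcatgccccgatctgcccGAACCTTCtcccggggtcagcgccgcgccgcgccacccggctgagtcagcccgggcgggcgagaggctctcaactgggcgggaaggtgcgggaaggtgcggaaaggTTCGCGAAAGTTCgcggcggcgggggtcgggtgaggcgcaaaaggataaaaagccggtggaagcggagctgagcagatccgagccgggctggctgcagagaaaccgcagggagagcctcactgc

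The HSPA6 window held the full element, and so did those of 5 other members, DNAJA1, DNAJB6, HSP90AA1, HSP90AB1 and HSPD1. Windows were found for 72 of the 81 genes. A gene with several starts was counted if any of its windows held the letters. Of the 72, 6 (8.33%) held the full element, against 0.608% of 27305 genes in the promoter table. GAANNTTC was in 22.2% against 8.21%, TTCNNGAA in 19.4% against 9.46%, and either of them in 31.9% against 16.2%. CCAAT was in 36.1% against 39.7% and TATAAA in 13.9% against 14.0%. Stretches of 60 bases around the element are given for the 5 other genes so that the units can be compared. HSP90AA1 lies at chr14:102087097-102087156, minus strand, HSP90AB1 at chr6:44247754-44247813, plus strand, HSPD1 at chr2:197500031-197500090, minus strand, DNAJA1 at chr9:33025252-33025311, plus strand and DNAJB6 at chr7:157336849-157336908, plus strand.
HSP90AA1: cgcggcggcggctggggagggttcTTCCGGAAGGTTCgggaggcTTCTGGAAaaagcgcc
HSP90AB1: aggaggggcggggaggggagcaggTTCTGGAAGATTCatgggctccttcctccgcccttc
HSPD1: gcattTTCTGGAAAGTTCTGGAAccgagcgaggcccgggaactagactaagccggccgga
DNAJA1: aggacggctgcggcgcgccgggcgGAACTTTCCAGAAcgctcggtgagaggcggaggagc
DNAJB6: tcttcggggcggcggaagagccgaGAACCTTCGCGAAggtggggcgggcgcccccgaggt

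The 6 genes with the full element did not move together. At PMA 3 days 3 were above 0 and 3 below, with log2 ratios of -1.58 to 0.49, and at PMA 8 days again 3 and 3, with -2.53 to 0.50. HSPA6 was at the low end and DNAJA1 at the high end both times. A match is a description of the letters and says nothing of binding.

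Among the nucleotide exchange factors and other HSP70-binding cochaperones, BAG3 was higher and HSPA4L lower in PMA-treated cells. BAG3, which links HSP70 to small heat shock proteins and to selective autophagy, had 3139 in undifferentiated, 5024 in PMA 3 days and 6448 in PMA 8 days cells. It was 1.60-fold higher (log2 ratio 0.68) at PMA 3 days and 2.05-fold higher (1.04) at PMA 8 days than in undifferentiated cells, just past the 2-fold line. Only 1 probe set reads BAG3, so its value has no second reading on these arrays. HSPA4L, an exchange factor of the HSP110 type, had 1303 in undifferentiated cells, 577 at PMA 3 days and 839 at PMA 8 days. It was 2.26-fold lower (-1.18) at PMA 3 days and 1.55-fold lower (-0.63) at PMA 8 days, and its second probe set, 1556194_a_at, had 887 in undifferentiated cells, 270 at PMA 3 days and 307 at PMA 8 days (-1.72 and -1.53).

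The other HSP110-type genes were not lower. HSPH1, the main HSP110 of the cytosol, had 9102 in undifferentiated cells, 14251 at PMA 3 days and 15367 at PMA 8 days, which was 1.57-fold and 1.69-fold above undifferentiated cells at PMA 3 days and PMA 8 days. Its probe set 208744_x_at had log2 ratios of 0.91 and 0.97, but 235573_at had -0.51 and -0.33. HSPA4 had 5813 in undifferentiated cells, 6397 at PMA 3 days and 8117 at PMA 8 days (log2 ratios 0.14, which became -0.17 under poly-A control scaling, and 0.48). Of the BAG genes, BAG1, an exchange factor that binds the proteasome, had 5925 in undifferentiated cells, 3840 at PMA 3 days and 4558 at PMA 8 days, and all 3 of its probe sets were below undifferentiated at both PMA times, by -0.61 to -1.36 at PMA 3 days. BAG6, which shields hydrophobic segments of proteins bound for membranes, had 7419 in undifferentiated cells, 5716 at PMA 3 days and 6378 at PMA 8 days. BAG4 and BAG5 had probe sets that disagreed: for BAG5 202985_s_at had 5031 in undifferentiated cells, 4628 at PMA 3 days and 4371 at PMA 8 days, and 230427_s_at had 779 in undifferentiated cells, 342 at PMA 3 days and 252 at PMA 8 days (-1.19 and -1.63). Over all 10 genes the median log2 ratio was -0.15 at PMA 3 days, -0.12 at PMA 8 days and 0.13 between the PMA arrays.

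The BAG3 window held TGANTCA, a loose form of the AP-1 site with any base in the middle. The AP-1 site is known to respond to PMA. The match reads TGACTCA in BAG3 and TGATTCA in HSPB3. TGANTCA was in 5 of 72 members (6.94%), against 9.37% of all genes: BAG3, DNAJA4, DNAJC15, HSPA6 and HSPB3. Of these 5, 4 were above undifferentiated at both PMA times on their brightest probe set and HSPA6 was below. Of all genes, 5648 of 13306 were above 0 at PMA 3 days and 6112 of 13555 at PMA 8 days. On these probe sets DNAJA4 and DNAJC15 lay within the probe set SD at both times. A link of the letters to the values was not tested. The other probe sets of DNAJC15 were below, 227808_at at -0.36 and -0.27 and 230305_at at -0.50 and -0.45. The stretch of the BAG3 window with the match in capitals (chr10:119651334-119651393, plus strand, GRCh38.p14) is shown because BAG3 is among the genes past 2-fold.
BAG3: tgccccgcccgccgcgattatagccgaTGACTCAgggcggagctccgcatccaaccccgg

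**Figure D3:**
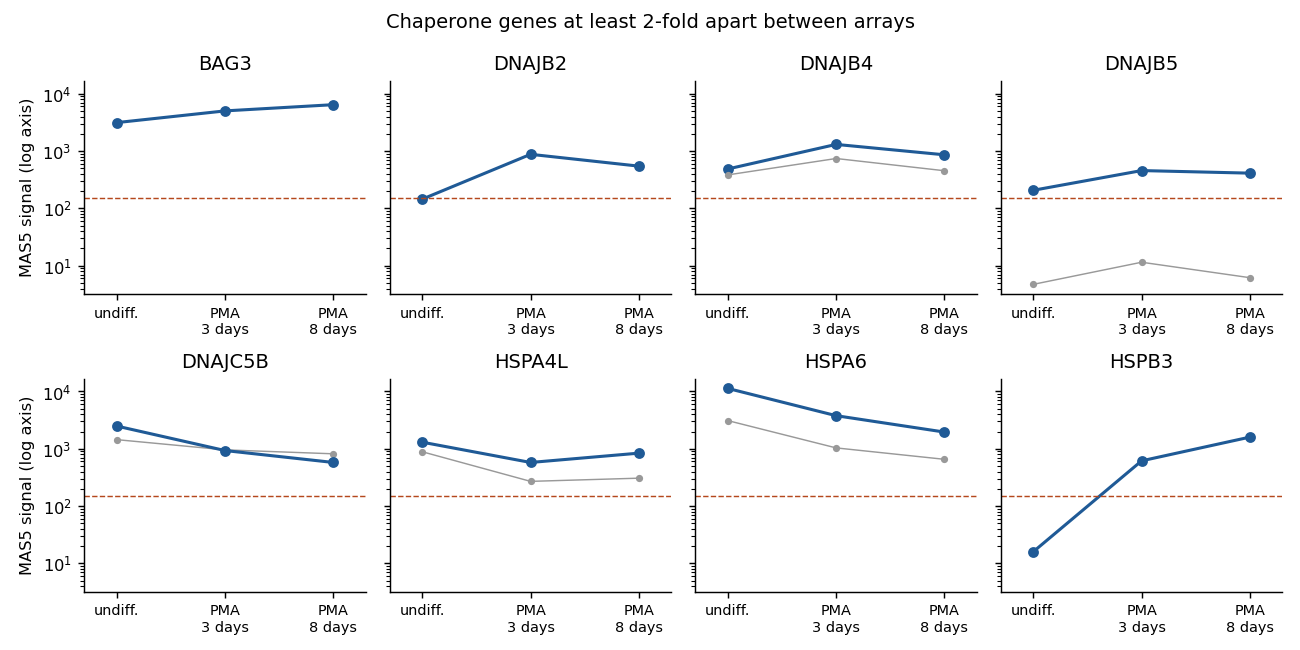
MAS5 signal (vertical log axis) on the undifferentiated, PMA 3 days and PMA 8 days arrays for the 8 chaperone genes past 2-fold in any comparison, with the brightest probe set in blue, other probe sets in grey and the floor of 149.8 dashed. HSPA6 and DNAJC5B are lower on each later array, BAG3 and HSPB3 are higher on each later array, and DNAJB2, DNAJB4 and DNAJB5 are highest at PMA 3 days (DNAJB5 not under poly-A control scaling).

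HSP90 genes differed from undifferentiated cells by less than the probe set SD at both PMA times. HSP90AA1, the inducible cytosolic HSP90, had 57811 in undifferentiated cells, 58696 at PMA 3 days and 66167 at PMA 8 days, with log2 ratios of 0.02 at PMA 3 days and 0.19 at PMA 8 days over undifferentiated. All 4 of its probe sets were at or above 0 in both. HSP90AB1, the constitutive cytosolic form, had 39955 in undifferentiated cells, 34045 at PMA 3 days and 37955 at PMA 8 days (-0.23 and -0.07). HSP90B1, the HSP90 of the endoplasmic reticulum, had 12690 in undifferentiated cells, 16035 at PMA 3 days and 12359 at PMA 8 days (0.34 and -0.04), and 200599_s_at, listed with MIR3652 and HSP90B1, had 45396 in undifferentiated cells, 47646 at PMA 3 days and 42492 at PMA 8 days. The median of the 3 genes at PMA 3 days was 0.02, which became -0.28 under poly-A control scaling and 0.26 after quantile normalization, so that no direction is given.

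Mitochondrial chaperonin genes were slightly below undifferentiated cells at both PMA times, with neither past 1.5-fold. HSPD1, the barrel of the chamber, had 62021 in undifferentiated cells, 43526 at PMA 3 days and 52887 at PMA 8 days, which was 1.42-fold lower (log2 ratio -0.51) at PMA 3 days and 1.17-fold lower (-0.23) at PMA 8 days. HSPE1, its lid, had 14744 in undifferentiated cells, 11324 at PMA 3 days and 13833 at PMA 8 days (-0.38 and -0.09). These 2 genes are known to share 1 promoter region in opposite orientations. For both, the undifferentiated array was highest and the PMA 3 days array lowest.

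The PMA 3 days array was also the lowest for most subunits of the CCT ring. The ring subunit TCP1 lies outside the symbol rule and has no value here, as no probe set lists it alone. At PMA 3 days all 8 CCT genes entering had a log2 ratio below 0, from -0.46 to -0.03, with a median of -0.28, against -0.12 for all genes, and all 12 of their probe sets above the floor on both arrays were below 0. Of all genes, 7657 of 13306 were below 0 at PMA 3 days. Only CCT6B lay beyond the probe set SD of 0.430 (12.5% of the 8 CCT genes, against 53.5% of all genes). At PMA 8 days 4 of the 8 were above and 4 below 0, with a median of 0.01. Between the PMA arrays 7 of 8 were above 0 (PMA 8 days over PMA 3 days), against 7143 of 13051 genes, with a median of 0.22. CCT8 had 34130 in undifferentiated cells, 25385 at PMA 3 days and 28145 at PMA 8 days, CCT4 had 25336 in undifferentiated cells, 20637 at PMA 3 days and 24716 at PMA 8 days, and CCT3 had 20850 in undifferentiated cells, 20404 at PMA 3 days and 23680 at PMA 8 days. CCT2 had 20610 in undifferentiated cells, 17227 at PMA 3 days and 21776 at PMA 8 days, CCT5 had 15511 in undifferentiated cells, 13615 at PMA 3 days and 16016 at PMA 8 days, CCT6A had 11789 in undifferentiated cells, 10362 at PMA 3 days and 12292 at PMA 8 days, and CCT7 had 12838 in undifferentiated cells, 9677 at PMA 3 days and 11125 at PMA 8 days. In each of these 7 genes the PMA 3 days array was lowest, except that after centring on all genes CCT3 stood at 0.09 over undifferentiated. CCT6B, a form of CCT6 known best from testis, had 749 in undifferentiated cells, 544 at PMA 3 days and 468 at PMA 8 days and was lowest at PMA 8 days, though 0.07 above PMA 3 days under poly-A control scaling. The median at PMA 3 days stayed below 0 under every scaling run.

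**Figure D4:**
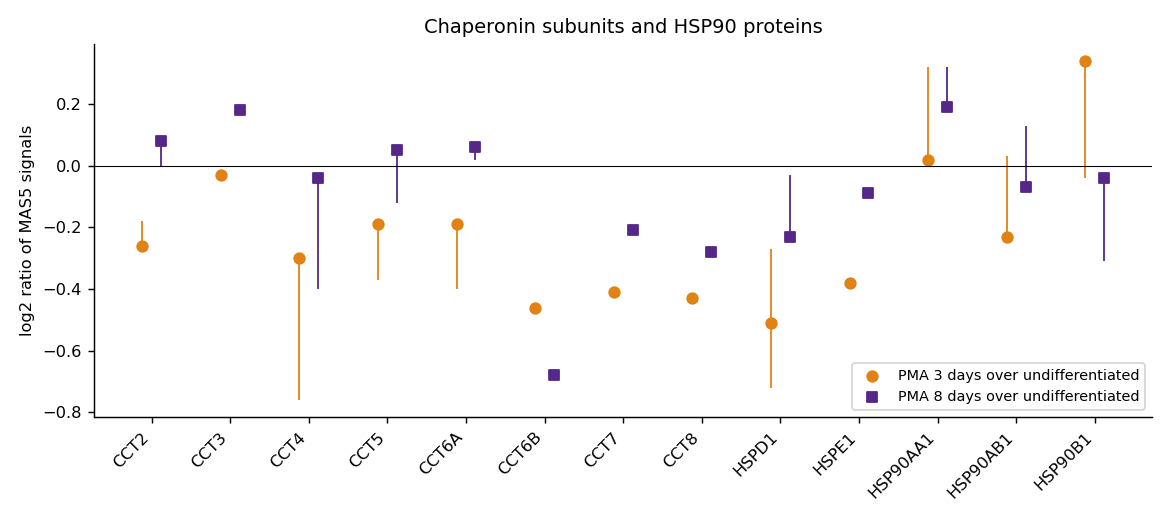
Log2 ratio of MAS5 signals (vertical axis) of the CCT, HSPD1, HSPE1 and HSP90 genes for PMA 3 days (orange circles) and PMA 8 days (purple squares) over undifferentiated, with lines over the range of the gene's probe sets above the floor on both arrays compared. All 8 CCT genes lie below 0 at PMA 3 days, between -0.46 and -0.03 (CCT3 reaches 0.09 after centring on all genes), and 4 of the 8 lie below 0 at PMA 8 days.

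Small heat shock proteins were led by HSPB3, a member of the family known best from muscle. HSPB3 (probe set 206375_s_at) had 16.0 in undifferentiated, 616 in PMA 3 days and 1599 in PMA 8 days cells. The undifferentiated signal was below the floor, so that HSPB3 was at least 4.11-fold higher (log2 ratio at least 2.04) at PMA 3 days and at least 10.7-fold higher (at least 3.42) at PMA 8 days. It was the only chaperone gene past 2-fold between the PMA arrays, 2.60-fold higher (1.38) at PMA 8 days than at PMA 3 days. Only 1 probe set reads it.

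The HSPB3 window (chr5:54455449-54455748, plus strand, GRCh38.p14) is printed because this gene had the highest bound among the chaperone genes at PMA 8 days. Capitals mark TGANTCA and TATAAA. TTCNNGAA was found 1 time, left in lower case near the 5′ end, and neither GAANNTTC nor the full element of 3 units was found.
HSPB3: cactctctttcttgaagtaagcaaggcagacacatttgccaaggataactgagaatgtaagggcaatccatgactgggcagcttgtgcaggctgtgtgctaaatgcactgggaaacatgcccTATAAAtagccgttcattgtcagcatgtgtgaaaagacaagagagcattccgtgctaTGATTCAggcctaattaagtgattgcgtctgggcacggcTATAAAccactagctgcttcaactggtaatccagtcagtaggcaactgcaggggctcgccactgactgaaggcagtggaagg

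HSPB1 (HSP27), the small heat shock protein found in most tissues, had 7615 in undifferentiated cells, 5082 at PMA 3 days and 8542 at PMA 8 days. Its log2 ratio over undifferentiated was -0.58 at PMA 3 days and 0.17 at PMA 8 days, and it was 1.68-fold higher (0.75) at PMA 8 days than at PMA 3 days. HSPB7, known best from heart, had 232 in undifferentiated cells, 137 at PMA 3 days and 277 at PMA 8 days, and HSPB8, a partner of BAG3, had 221 in undifferentiated cells, 95.0 at PMA 3 days and 209 at PMA 8 days. These 3 genes were all lowest at PMA 3 days, the last 2 with a PMA 3 days signal under the floor, and HSPB3 was not. HSPB2, HSPB6 and HSPB9 did not pass the floor on any array. The median over the 4 genes entering was -0.57 at PMA 3 days, 0.21 at PMA 8 days and 0.82 in PMA 8 days over PMA 3 days. Bounds at the floor were HSPB3, HSPB7 and HSPB8 at PMA 3 days, HSPB3 at PMA 8 days, and HSPB7 and HSPB8 between the PMA arrays. A bound could only take the sign set by the array above the floor. The medians at PMA 3 days and between the PMA arrays thus give no direction for the group.

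J-domain proteins fell into 3 groups by symbol. Of the DNAJA genes, whose proteins have the full domain set of the bacterial DnaJ, DNAJA1 had 15954 in undifferentiated, 22475 in PMA 3 days and 22578 in PMA 8 days cells. It was 1.41-fold and 1.42-fold higher (log2 ratios 0.49 and 0.50), and its other probe set went the same way (0.19 and 0.57). DNAJA4 had 2799 in undifferentiated cells, 3561 at PMA 3 days and 3539 at PMA 8 days, with all 4 probe sets above 0 at both times, from 0.35 to 1.09 at PMA 3 days. DNAJA2 had 6518 in undifferentiated cells, 7173 at PMA 3 days and 6679 at PMA 8 days, and DNAJA3, the mitochondrial form, had 4915 in undifferentiated cells, 3684 at PMA 3 days and 4520 at PMA 8 days. The median of the 4 genes was 0.24 at PMA 3 days and 0.19 at PMA 8 days, but -0.06 at PMA 3 days under poly-A control scaling.

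DNAJB genes, whose proteins include the main J-domain partners of HSP70 in the cytosol, were above undifferentiated cells together on their brightest probe sets. All 9 entering had log2 ratios above 0 at both times, and did so under quantile normalization and centring. Under poly-A control scaling all but DNAJB13, which then did not enter at PMA 3 days, did so too. Of all genes, 5648 of 13306 were above 0 at PMA 3 days and 6112 of 13555 at PMA 8 days. Other probe sets of DNAJB12 were not above 0 throughout: 202867_s_at had 0.01 and -0.02, and 214338_at had -0.21 and -0.26. DNAJB2 and DNAJB13 were under the floor in undifferentiated cells and entered through their PMA signals alone. Their ratios are bounds (0.04 for DNAJB13 at PMA 3 days) that could only lie above 0, so they add nothing to the count of 9. Among DNAJB probe sets above the floor on both arrays compared, 12 of 13 were above 0 at PMA 3 days. At PMA 8 days 12 of 14 were. The median of the 9 genes was 0.69 at PMA 3 days, against -0.12 for all genes, and 0.44 at PMA 8 days, against -0.07. Both medians are the values of DNAJB12 on its brightest probe set, 202866_at. It is the brightest by mean signal over the arrays only through its PMA signals. In undifferentiated cells 202867_s_at was brighter, at 1397 against 1075, so both medians rest on that choice. At PMA 3 days 7 of the 9 (77.8%) lay beyond the probe set SD, against 53.5% of all genes, and at PMA 8 days 4 (44.4%), against 48.9%. Between the PMA arrays 8 of 9 were below 0 (PMA 8 days over PMA 3 days), against 5908 of 13051 genes. Their median of -0.18 became 0.11 under poly-A control scaling.

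DNAJB2, known best from neurons and able to pass clients to the proteasome, had 145 in undifferentiated cells, 878 at PMA 3 days and 546 at PMA 8 days. Its undifferentiated signal was just under the floor, so that it was at least 5.86-fold higher (log2 ratio at least 2.55) at PMA 3 days and at least 3.65-fold higher (at least 1.87) at PMA 8 days. DNAJB4, a close relative of DNAJB1, had 487 in undifferentiated cells, 1307 at PMA 3 days and 861 at PMA 8 days, which was 2.68-fold (1.42) and 1.77-fold (0.82) above undifferentiated. Its second probe set had 384 in undifferentiated cells, 742 at PMA 3 days and 454 at PMA 8 days (0.95 and 0.24), the same order at a smaller size. DNAJB5, another relative of DNAJB1, had 207 in undifferentiated cells, 457 at PMA 3 days and 412 at PMA 8 days, or 2.20-fold (1.14) and 1.99-fold (0.99) above undifferentiated, on either side of the 2-fold line. A second DNAJB5 probe set was far under the floor on every array. DNAJB1 (HSP40), the classical inducible partner of HSP70, had 2179 in undifferentiated cells, 3819 at PMA 3 days and 3458 at PMA 8 days, 1.75-fold (0.81) and 1.59-fold (0.67) higher, and its other probe set gave 0.52 and 0.64. In all 4 genes the PMA 3 days array was highest on the brightest probe set. The other DNAJB1 probe set was highest at PMA 8 days, with 1056 in undifferentiated cells, 1515 at PMA 3 days and 1651 at PMA 8 days. Under poly-A control scaling the brightest probe sets of DNAJB1 and DNAJB5 were each 0.14 higher at PMA 8 days than at PMA 3 days on the log2 scale.

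Of the remaining DNAJB genes, DNAJB11, the J-domain partner of the HSP70 in the endoplasmic reticulum, had 10442 in undifferentiated cells, 16207 at PMA 3 days and 13402 at PMA 8 days (1.55-fold and 1.28-fold higher). DNAJB14, anchored in the same membrane, had 3207 in undifferentiated cells, 4758 at PMA 3 days and 4200 at PMA 8 days, and its relative DNAJB12 had 1075 in undifferentiated cells, 1735 at PMA 3 days and 1460 at PMA 8 days. The other probe sets of DNAJB12 did not follow it: 202867_s_at had 1397 in undifferentiated cells, 1405 at PMA 3 days and 1374 at PMA 8 days. DNAJB6, which keeps polyglutamine proteins from aggregating, had 2194 in undifferentiated cells, 2839 at PMA 3 days and 2763 at PMA 8 days on the probe set listed with it alone (0.37 and 0.33). Probe sets 208810_at and 208811_s_at, listed with TMEM135 and DNAJB6, had 4142 in undifferentiated cells, 8768 at PMA 3 days and 7999 at PMA 8 days, and 4794 in undifferentiated cells, 8726 at PMA 3 days and 9214 at PMA 8 days. DNAJB13 had 127 in undifferentiated cells, 154 at PMA 3 days and 201 at PMA 8 days, close to the floor. Windows of DNAJB1 and DNAJB4 held a pair of heat shock units but not the full element, and stretches of 60 bases with these units in capitals are given (chr19:14518441-14518500, minus strand; chr1:78004815-78004874, plus strand; GRCh38.p14). The capitals at the end of the DNAJB1 stretch begin a further unit pair that runs past it.
DNAJB1: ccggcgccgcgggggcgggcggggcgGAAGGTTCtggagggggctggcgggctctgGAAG
DNAJB4: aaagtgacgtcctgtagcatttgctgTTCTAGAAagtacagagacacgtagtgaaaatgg

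DNAJC genes, which share only the J domain and serve many specialised tasks, were mostly close to undifferentiated levels. Of 24 entering at PMA 3 days 8 were above and 16 below 0, with a median log2 ratio of -0.19. Of 23 at PMA 8 days 7 were above and 16 below, with a median of -0.09. Most of all genes were below 0 too, 7657 of 13306 at PMA 3 days and 7443 of 13555 at PMA 8 days. The DNAJC median at PMA 8 days was 0.02 after centring on all genes, so its sign rests on the scaling. DNAJC5B was the only one past 2-fold. It encodes a cysteine string protein, a type of J-domain protein of vesicles, and had 2491 in undifferentiated, 931 in PMA 3 days and 577 in PMA 8 days cells. It was 2.68-fold lower (-1.42) at PMA 3 days and 4.32-fold lower (-2.11) at PMA 8 days, while its second probe set had 1443 in undifferentiated cells, 957 at PMA 3 days and 817 at PMA 8 days (-0.59 and -0.82). Both probe sets were lower on each later array, and only the brighter one passed 2-fold.

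The DNAJC genes with the brightest probe sets hardly moved. DNAJC1 of the endoplasmic reticulum had 12719 in undifferentiated cells, 10521 at PMA 3 days and 10618 at PMA 8 days, DNAJC7, a tetratricopeptide cochaperone of HSP70 and HSP90, had 10568 in undifferentiated cells, 11114 at PMA 3 days and 10083 at PMA 8 days, and DNAJC15 of mitochondria had 6457 in undifferentiated cells, 8010 at PMA 3 days and 8694 at PMA 8 days on its brightest probe set, which its 2 others did not follow. DNAJC19, a J-domain protein of the mitochondrial inner membrane, had 2569 in undifferentiated cells, 1437 at PMA 3 days and 1937 at PMA 8 days (log2 ratios -0.84 and -0.41). DNAJC6 (auxilin), which uncoats clathrin vesicles, had 262 in undifferentiated cells, 162 at PMA 3 days and 146 at PMA 8 days. DNAJC9, a histone chaperone, had 8289 in undifferentiated cells, 5895 at PMA 3 days and 7256 at PMA 8 days, and DNAJC17 had 880 in undifferentiated cells, 603 at PMA 3 days and 810 at PMA 8 days. Like the CCT genes, DNAJC19, DNAJC9 and DNAJC17 were lowest at PMA 3 days. DNAJC30 of mitochondria had 569 in undifferentiated cells, 792 at PMA 3 days and 1131 at PMA 8 days, just inside 2-fold at PMA 8 days (1.99-fold, 0.99), but its probe set 239018_at had 242 in undifferentiated cells, 184 at PMA 3 days and 158 at PMA 8 days.

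Probe sets of DNAJC10, DNAJC18 and DNAJC21 also disagreed by over 1 log2 unit among those above the floor on both arrays compared. DNAJC10, a disulfide reductase of the endoplasmic reticulum, had 3640 in undifferentiated cells, 5455 at PMA 3 days and 5793 at PMA 8 days on its brightest probe set (log2 ratios 0.58 and 0.67). Its probe sets 221781_s_at and 221782_at had log2 ratios of 1.32 and 1.46 at PMA 3 days, and 229588_at had -0.37. DNAJC21, which acts in the making of the large ribosomal subunit, had 4588 in undifferentiated cells, 2782 at PMA 3 days and 3273 at PMA 8 days on 238337_s_at and 1103 in undifferentiated cells, 233 at PMA 3 days and 349 at PMA 8 days on 230893_at (-2.24 and -1.66). DNAJC18 had 696 in undifferentiated cells, 586 at PMA 3 days and 575 at PMA 8 days on 227166_at and 385 in undifferentiated cells, 154 at PMA 3 days and 187 at PMA 8 days on 238115_at. For DNAJC21 and DNAJC18 both readings were below undifferentiated and differed in size, while for DNAJC10 they differed in direction. DNAJC4 is a further case if bounds are counted, named after its values were seen: 206781_at had 107 in undifferentiated cells, 353 at PMA 3 days and 501 at PMA 8 days (at least 1.24 and at least 1.74), while 223371_s_at had 308 in undifferentiated cells, 224 at PMA 3 days and 226 at PMA 8 days (-0.46 and -0.45). Over all members with at least 2 probe sets above the floor on both arrays compared, these went the same way in 30 of 45 genes at PMA 3 days and 28 of 46 at PMA 8 days over undifferentiated, and in 30 of 45 in PMA 8 days over PMA 3 days. HSPBAP1 had 752 in undifferentiated cells, 535 at PMA 3 days and 604 at PMA 8 days.

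**Figure D5:**
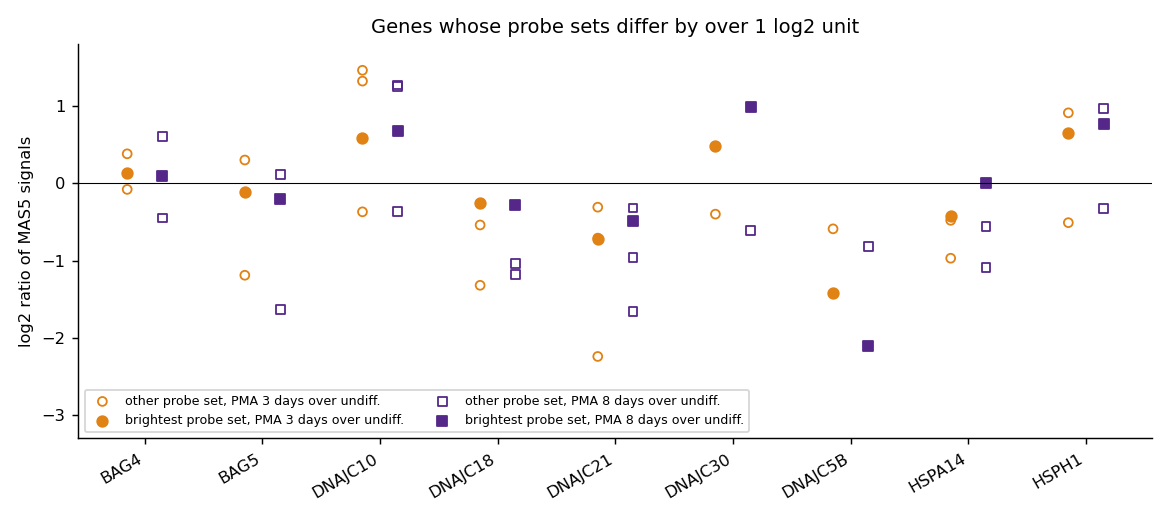
Log2 ratio of MAS5 signals (vertical axis) of each probe set above the floor on both arrays compared, for the 9 chaperone genes whose probe sets so chosen differ by over 1 log2 unit, at PMA 3 days (orange circles) and PMA 8 days (purple squares) over undifferentiated, with the brightest probe set filled. The probe sets plotted lie on both sides of 0 for BAG4, BAG5, DNAJC10, DNAJC30 and HSPH1, and DNAJC21 reaches -2.24.

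Genes that work with these chaperones were read from lists written by hand. Of 8 genes of heat shock factors and of proteins that bind them, 5 were on the array and 2 entered, HSF1 and the binding protein HSBP1, and neither passed 2-fold. HSF1 had 960, 860 and 640 in undifferentiated, PMA 3 days and PMA 8 days cells (log2 ratios -0.16 and -0.59). Of 17 HSP90 cochaperones 16 entered. At PMA 3 days 0 of the 16 were higher (against 10.4% of all genes) and 1 lower (against 10.7%). At PMA 8 days 2 were higher (against 9.83%) and 1 lower (against 8.49%). The medians were -0.10 and -0.05, against -0.12 and -0.07 for all genes. FKBP5, an immunophilin that holds the glucocorticoid receptor inactive, had 6655 in undifferentiated cells, 1592 at PMA 3 days and 2856 at PMA 8 days and was 4.18-fold lower (-2.06) at PMA 3 days and 2.33-fold lower (-1.22) at PMA 8 days. STIP1 (HOP), which hands clients of HSP70 to HSP90, had 2422 in undifferentiated cells, 4311 at PMA 3 days and 5158 at PMA 8 days, and was 1.78-fold (0.83) and 2.13-fold (1.09) higher. CDC37L1, a relative of the kinase cochaperone CDC37, had 1127 in undifferentiated cells, 2123 at PMA 3 days and 2406 at PMA 8 days, again 2.13-fold (1.09) higher at PMA 8 days.

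Of 14 genes listed as prefoldin and CCT helpers, which bring actin and tubulin to and from the ring, 11 entered. The list also held TCP1, itself a ring subunit and not a helper, which had no value. Of the 11, 0 were past 2-fold at either time, with medians of 0.01 at PMA 3 days and 0.06 at PMA 8 days. Of 12 genes of mitochondrial folding and proteolysis 11 entered and 0 were past 2-fold, with medians of -0.35 at PMA 3 days and -0.17 at PMA 8 days. Of all genes, 10.4% were higher and 10.7% lower at PMA 3 days, and 9.83% higher and 8.49% lower at PMA 8 days. CLPB, a mitochondrial disaggregase, had 1110 in undifferentiated cells, 635 at PMA 3 days and 828 at PMA 8 days, and HSCB, the J-domain protein of iron-sulfur cluster assembly, had 885 in undifferentiated cells, 1570 at PMA 3 days and 1191 at PMA 8 days. CLPB was lowest and HSCB highest at PMA 3 days. CRYAB, a small heat shock protein outside the symbol rule, was under the floor on every array.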

How the data were processed

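The deposited intensity values, 1 array per condition, were made by the authors with MAS5, per the submitters' processing notes; its version and settings are not given in the sources used here. They are linear, and each array's mean after leaving out 2% at either end was 1000. Of 54675 probe sets 62 are controls, 41091 list 1 gene, 1801 several and 11721 none. Only those with 1 gene were counted. A RefSeq table matched 41037 of these by Entrez ID and changed 0 symbols. A gene is read by its brightest probe set, by mean signal over all arrays. Signals were raised to a floor of 149.8 before log2 ratios, and a gene entered if above it on at least 1 of the arrays compared. Calls are at 2-fold, with 1.5-fold beside them. With 1 array per group (n = 1) there is no error over cultures.

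The members and lists were chosen with earlier results of these data known. Named genes are those past 2-fold, the 3 brightest of each role and those whose probe sets above the floor on both arrays compared differ by over 1 log2 unit. BAG1, CCT2, CCT5, CCT6A, CCT6B, CCT7, DNAJA4, DNAJB6, DNAJB12, DNAJB13, DNAJC4, DNAJC6, DNAJC9, DNAJC17, DNAJC19, HSPA1L, HSPA2, HSPA12B and HSPB8, and the genes named from the companion and marker lists, were named after their values were seen. Promoter windows are RefSeq's on GRCh38.p14, and protein sequences were not used here. Steps were tested on simulated data. Alternatives were other floors, scalings, choices of probe set and folds, and 0 sample columns were left out. Software was Python 3.11.15 (numpy 2.4.6, scipy 1.17.1, pandas 2.3.3, matplotlib 3.10.9).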

Additional observations from a re-analysis of the deposited data

Results flagged for a closer look

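Probe sets listed with several genes lie outside the counts of chaperone genes, and 2 of them passed 2-fold. Probe set 208810_at, listed with TMEM135 and DNAJB6, had 8768 at PMA 3 days, against 4142 in undifferentiated cells (log2 ratio 1.08). Probe set 238805_at, listed with HSPB2-C11orf52, C11orf52 and HSPB2, had 161 at PMA 3 days, against 338 in undifferentiated cells, a log2 ratio of -1.07. HSPB2 itself, on its own probe set, was under the floor on all 3 arrays.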

How the results depend on the processing

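Depth of signal limits HSPB3, DNAJB2 and other genes near the floor, whose ratios are bounds, and a single array per condition limits the rest. No paired analysis was possible because each group has 1 array. HSPA6, HSPA4L, BAG3, DNAJB2 and HSPB3 stayed past 2-fold in the comparisons where they were called under all alternatives that gave them a value. HSPB3 and BAG3 have 1 probe set each, of the _s_at kind, and gave none on the second-brightest probe set or without that kind, and DNAJB2, with 1 probe set, gave none on the second-brightest. DNAJB4 missed it at PMA 3 days on the second-brightest probe set (log2 ratio 0.95), as did DNAJC5B (-0.59 at PMA 3 days and -0.82 at PMA 8 days), and DNAJB5 missed it with the floor at the 60th percentile and under poly-A control scaling (lowest 0.81). Of the values of named genes under the alternatives, 1474 stayed within the probe set SD of the value reported and 123 moved beyond it.

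In PMA 3 days over undifferentiated the 4 higher genes became 1 on the second-brightest probe set and 9 at 1.5-fold, and the 3 lower genes became 5 under poly-A control scaling and 8 at 1.5-fold. The median of -0.15 became -0.03 after centring on all genes, -0.48 under poly-A control scaling and -0.26 on the second-brightest probe set. In PMA 8 days over undifferentiated the 3 higher genes became 5 after quantile normalization, 5 after centring and 9 at 1.5-fold, the 2 lower genes became 4 with the median of probe sets and 5 at 1.5-fold, and the median became -0.14 on the second-brightest probe set. In PMA 8 days over PMA 3 days the 1 higher gene became 3 with the floor at the 40th percentile, 2 under poly-A control scaling, 0 on the second-brightest probe set, 0 without probe sets of the _s_at and _x_at kinds and 3 at 1.5-fold. The 0 lower genes became 4 at 1.5-fold, and the median became 0.40 under poly-A control scaling. The cause of these moves was not tested. In the alternatives that left probe sets out, genes with no other probe set gave no value. Counting shared probe sets under their chaperone gene, an alternative chosen after seeing the data, left the counts at 4 and 3, 3 and 2, and 1 and 0 higher and lower.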
